A study of Mus musculus with 6 samples.

Results

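The genes described here are 10 components of cellular oxygen sensing and hypoxic mitophagy in mouse CD8+ T cells: the HIF subunits Hif1a, Epas1 and Arnt, the prolyl hydroxylases Egln1, Egln2 and Egln3, the asparaginyl hydroxylase Hif1an, the ubiquitin ligase component Vhl, and the mitophagy receptors Bnip3 and Bnip3l. They were taken by symbol from a count table of 55335 gene identifiers, each symbol matched 1 identifier, and all 10 passed the filter on low counts that left 19783 genes for testing. The tested cells, P14 TIL, were donor P14 CD8+ T cells sorted from B16-GP33-41 tumors. The comparison cells, P14 Sp, were donor P14 CD8+ T cells sorted from the spleens of the same tumor-bearing C57BL/6 mice, per the labels' protocols, which do not say which libraries share a mouse. Each tissue had 3 libraries. All 6 carried the P14 transgenic T cell receptor, which recognizes the GP33-41 peptide that this B16 melanoma line presents. All were also labelled as C57BL/6, 10 weeks old and FACS-sorted, and the T cells had been transferred on day 11 after tumor implantation. The day of harvest is not stated, and only tumor cells went through a Percoll gradient. Whether the 3 libraries of a tissue stem from different mice is not stated either, so p-values reflect the spread among these libraries alone, which may be technical.

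Hypoxia-inducible factors are dimers of an oxygen-labile alpha subunit (Hif1a or Epas1) and a stable beta subunit (Arnt). When oxygen is present, the Egln enzymes hydroxylate prolines of the alpha subunit, Vhl binds the hydroxylated form and marks it for the proteasome, and Hif1an hydroxylates an asparagine of it, which blocks the contact with co-activators. This control acts on the protein and was not measured here. Egln3 and Bnip3 are among the classical transcriptional targets of HIF, and Egln1 is induced by it in many cells. In T cells, activation through the antigen receptor is also known to raise Hif1a.

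Total counts ran from 35095261 to 38263483 per library. T cell identity markers summed to between 4992 and 5214 CPM (counts over the library total, scaled as usual) in P14 TIL and between 5584 and 5668 CPM in P14 Sp, with the labelled cell type's Cd8a at 645 ± 21.4 CPM in P14 TIL and 364 ± 6.62 CPM in P14 Sp (mean ± SD, n = 3 each, as throughout). Of these 10 markers, 2 were higher in P14 TIL, 4 were lower and 4 did not pass, with a median log2 fold change of -0.08. Of all genes tested, 34.8% were higher and 35.9% lower. Markers of other cells moved with tissue. Of the B cell markers, 12 of 12 were lower in P14 TIL, summing to between 10.9 and 13.1 CPM there and between 603 and 618 CPM in P14 Sp, and Cr2 was at 0 in P14 TIL. Of the macrophage and dendritic cell markers, 20 of 20 were lower, with sums between 125 and 134 CPM in P14 TIL and between 1959 and 2001 CPM in P14 Sp. Platelet markers (7 of 7 tested lower, at most 0.576 CPM in P14 TIL and 17.8 CPM in P14 Sp) and granulocyte markers (9 of 9 tested lower, at most 1.13 CPM in P14 TIL and 28.9 CPM in P14 Sp) did the same. In P14 TIL, Gp9 and Treml1 of the platelet list and Elane, Camp and Ngp of the granulocyte list were at 0. Erythroid markers summed to between 248 and 275 CPM in P14 TIL and between 214 and 218 CPM in P14 Sp (5 higher, 6 lower). Of 3 melanoma markers tested, Dct was higher in P14 TIL (51 counts in all P14 TIL libraries and 1 in all P14 Sp libraries), Pmel was lower (8.54 ± 0.88 CPM in P14 TIL and 19.8 ± 1.07 CPM in P14 Sp) and 1 did not pass. The 10 markers summed to between 9.76 and 10.9 CPM in P14 TIL and between 19.4 and 21.5 CPM in P14 Sp, sums carried by Pmel since the other 9 lay below 1 CPM in both tissues, with Gpr143 and Oca2 at 0 in P14 TIL and Tyrp1, Slc45a2 and Oca2 at 0 in P14 Sp. Of 4 endothelial and fibroblast markers tested, Egfl7 was higher (log2 fold change 2.85), Pecam1 (-0.63) and Vwf (-5.86) were lower and 1 did not pass. The 14 markers summed to between 60.9 and 67.4 CPM in P14 TIL and between 90.8 and 93.3 CPM in P14 Sp, of which Pecam1 gave 54.8 ± 2.29 CPM in P14 TIL and 86.2 ± 0.93 CPM in P14 Sp, with Tek, Col3a1 and Lum at 0 in P14 TIL and Lum at 0 in P14 Sp. Of 21 heat shock and immediate early genes, which tissue dissociation can induce, 16 were higher (76.2%, beside 34.8% of all genes) and 3 lower (14.3%, beside 35.9%). Their sums lay between 6311 and 6605 CPM in P14 TIL and between 3278 and 3391 CPM in P14 Sp. The part of these other cells and of dissociation in the results below was not tested. In bulk samples, fewer cells of a type and less RNA per cell cannot be told apart.

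Promoter windows are shown for Bnip3 and Egln3, HIF targets that were higher in P14 TIL by over 2-fold, for Egln1, which was higher by less, and for the most matched window of Egln2, which was lower. Each window runs from 250 bases before to 50 bases after the RefSeq transcript start (GRCm38.p6, the assembly of mm10), 5′ to 3′ on the strand of the gene, and capitals mark the core of the HIF binding motif, ACGTG or GCGTG, searched on both strands. On the opposite strand these cores read CACGT and CACGC, and a CACGTG counts once on each strand.
Bnip3 (chr7:138909457-138909756, minus strand): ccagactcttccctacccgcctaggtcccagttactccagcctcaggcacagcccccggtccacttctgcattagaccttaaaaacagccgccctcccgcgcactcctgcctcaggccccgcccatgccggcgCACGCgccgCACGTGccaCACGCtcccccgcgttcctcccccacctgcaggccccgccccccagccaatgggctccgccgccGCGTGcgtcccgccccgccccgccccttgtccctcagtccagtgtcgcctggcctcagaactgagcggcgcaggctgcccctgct
Egln3 (chr12:54203825-54204124, minus strand): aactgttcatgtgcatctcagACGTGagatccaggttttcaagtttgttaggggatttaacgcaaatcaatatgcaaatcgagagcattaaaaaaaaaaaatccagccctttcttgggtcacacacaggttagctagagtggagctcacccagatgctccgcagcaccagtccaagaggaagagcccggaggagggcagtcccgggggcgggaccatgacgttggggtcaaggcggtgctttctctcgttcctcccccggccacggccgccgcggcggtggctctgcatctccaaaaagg
Egln1 (chr8:124949205-124949504, minus strand): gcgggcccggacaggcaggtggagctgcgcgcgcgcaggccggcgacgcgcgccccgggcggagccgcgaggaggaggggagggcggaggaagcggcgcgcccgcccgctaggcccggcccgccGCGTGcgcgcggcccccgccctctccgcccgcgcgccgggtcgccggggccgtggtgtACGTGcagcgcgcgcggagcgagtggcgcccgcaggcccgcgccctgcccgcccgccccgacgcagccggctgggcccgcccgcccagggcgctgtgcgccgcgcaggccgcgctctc
Egln2 (chr7:27166753-27167052, minus strand): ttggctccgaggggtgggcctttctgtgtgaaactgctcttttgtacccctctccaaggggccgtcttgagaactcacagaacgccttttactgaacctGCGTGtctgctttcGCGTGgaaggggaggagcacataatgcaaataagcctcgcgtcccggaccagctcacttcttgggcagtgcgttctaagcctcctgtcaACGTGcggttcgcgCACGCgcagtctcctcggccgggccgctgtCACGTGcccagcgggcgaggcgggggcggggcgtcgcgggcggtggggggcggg

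The Bnip3 window held 5 matches and the Egln2 window held 6, in each case with 2 of them from a single CACGTG. Of 32851 windows of the same length, 1.66% held at least 5 matches and 0.694% held at least 6. These shares were not matched for base composition. The Bnip3 window was 71.7% G or C and the Egln2 window 64.3%, beside a median of 52.7% for all windows. Egln1 had 2 matches and Egln3 had 1, and 43.8% of all windows held at least 1 (19.6% an ACGTG, 32.4% a GCGTG). Among the other genes with a window, Hif1a had 3 matches, 2 of them from a single CACGTG, and 8.93% of all windows held at least 3. Arnt had 1, a second start of Egln2 had 1, and Hif1an and Vhl had 0. RefSeq windows were found for 8 of the 10 genes. A match is a description of letters in a window, not a binding site.

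**Figure D1:**
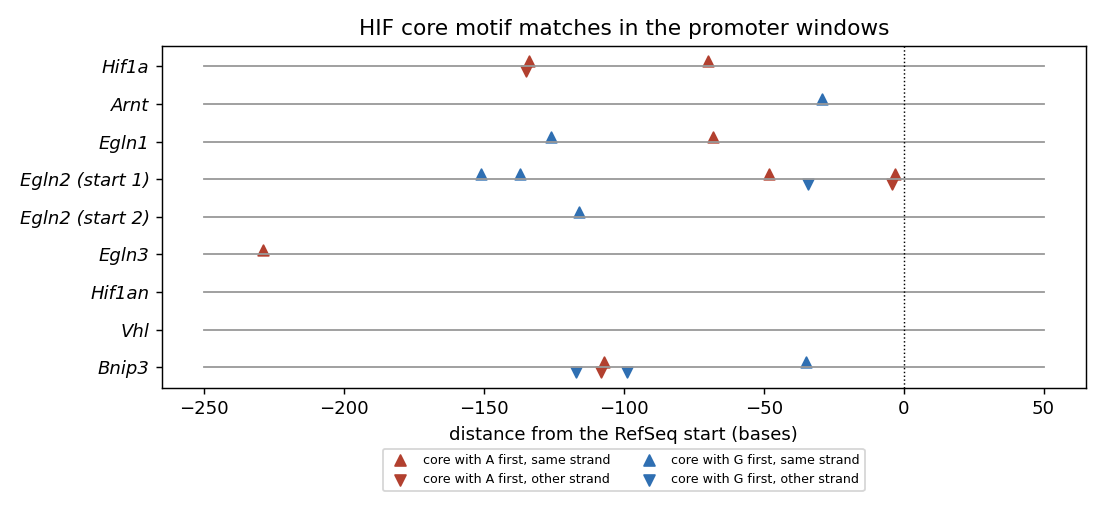
Positions of HIF core motif matches in the promoter windows of the 8 genes with a RefSeq window, as the distance in bases from the transcript start. Each mark is 1 match, pointing up on the strand of the gene and down on the other, red for a core that begins with A and blue for one that begins with G, and Egln2 has 2 windows, with 6 matches and 1 match.

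All 10 genes differed between the tissues at an adjusted p below 0.05 (edgeR quasi-likelihood test, Benjamini-Hochberg over all genes tested), 4 higher and 6 lower in P14 TIL. The background of that rule was wide, since 70.7% of all genes tested passed it, 34.8% higher and 35.9% lower. Against a null of a 2-fold change (glmTreat), 3 of the 10 passed higher (Hif1a, Egln3 and Bnip3), beside 5.87% of all genes, and 0 passed lower, also 0 at an unadjusted p below 0.05, beside 9.42% of all genes. The 3 P14 TIL libraries stood wholly above the P14 Sp libraries for 4 genes and wholly below for 6, beside 35.1% and 39.4% of all genes, or 74.5% in either direction. The median log2 fold change of the 10 was -0.21, beside -0.02 for all genes tested, whose interquartile range ran from -0.59 to 0.51. The system therefore split by gene: 3 genes moved by more than 2-fold upward, and the other 7 moved by less than 2-fold in either direction.

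**Figure D2:**
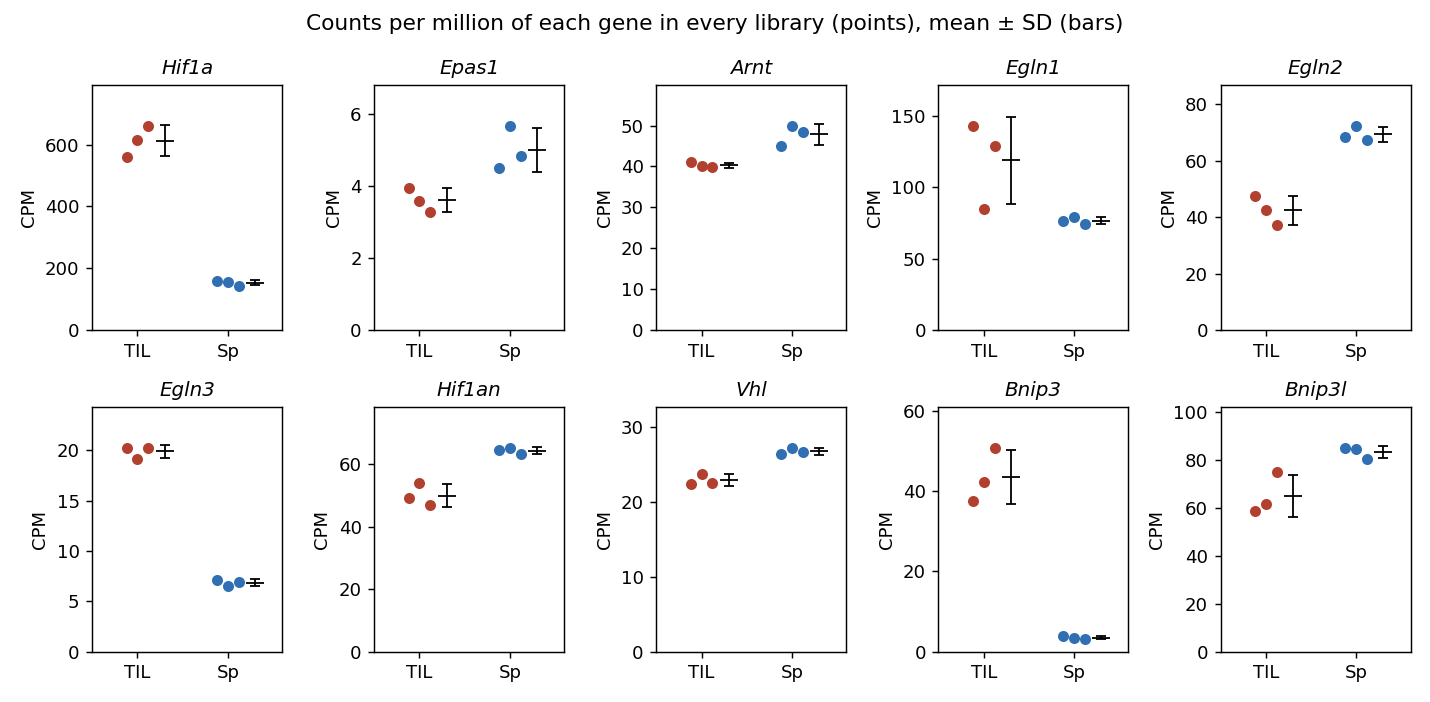
CPM of each of the 10 genes in every library, with P14 TIL left and P14 Sp right in each panel, and the mean ± SD beside the points. The ranges of the tissues do not overlap in any panel, and the Egln1 panel has 1 P14 TIL library, at 84.5 CPM, close to the P14 Sp libraries.

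**Figure D3:**
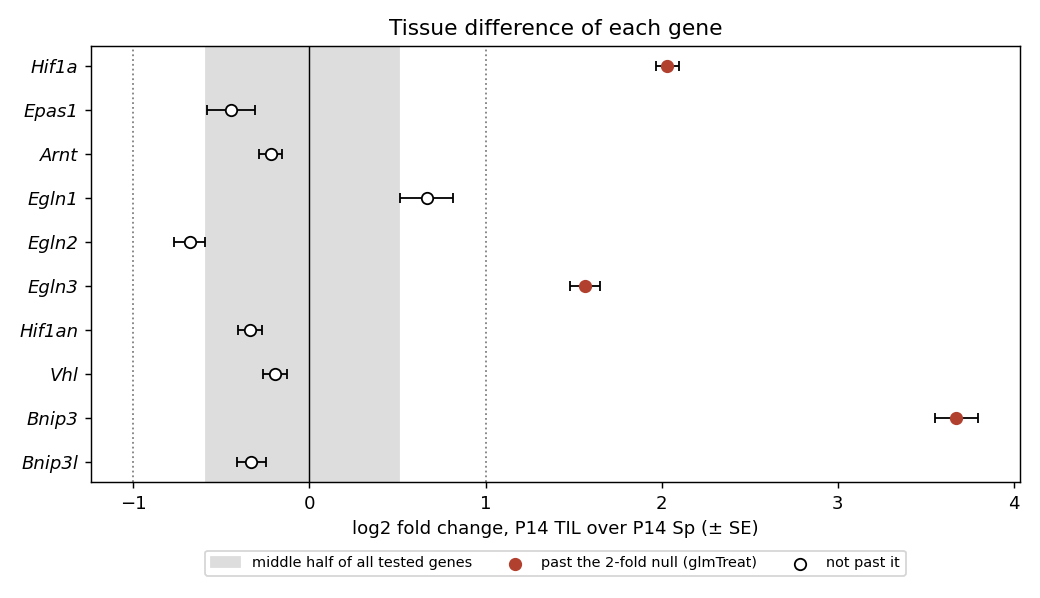
Log2 fold change of each gene, P14 TIL over P14 Sp, with its standard error, over a grey band for the interquartile range of all tested genes. Filled points, for Hif1a, Egln3 and Bnip3, passed the test against a 2-fold null.

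Among the HIF subunits, Hif1a alone was higher in P14 TIL. Hif1a, the alpha subunit of HIF-1 (chromosome 12, 73901375 to 73947530, plus strand), stood at 561, 616 and 661 CPM in the P14 TIL libraries, against 159, 156 and 144 CPM in the P14 Sp libraries. Every P14 TIL library was thus over 3 times the highest P14 Sp library, and the fit gave a 4.09-fold difference (log2 fold change 2.03, SE 0.07, adjusted p = 4.7e-10). That placed it at rank 492 of 19783 genes ordered from the most raised. Counts at this locus carry a limit, since the antisense model Gm15283 overlaps Hif1a and held between 12.5% and 15.4% as many counts, and Gm49321, which overlaps it on the same strand, held between 5.81% and 8.07%. Both were also higher in P14 TIL (log2 fold change 2.21 and 1.66), and adding the antisense counts gave Hif1a a log2 fold change of 2.05.

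Epas1, the alpha subunit of HIF-2 (chromosome 17, 86753700 to 86833410, plus strand), was the least abundant of the 10, at 3.95, 3.58 and 3.29 CPM in P14 TIL, against 4.51, 5.68 and 4.84 CPM in P14 Sp. These values rest on 144, 137 and 119 reads in P14 TIL and on 165, 214 and 170 reads in P14 Sp. The gap between the nearest libraries was small, and the log2 fold change was -0.45 (SE 0.14, adjusted p = 0.012). Arnt, the shared beta subunit (chromosome 3, 95434388 to 95497240, plus strand), stood at 41.0, 40.04 and 39.8 CPM in P14 TIL, against 45.1, 50.0 and 48.5 CPM in P14 Sp. Its log2 fold change was -0.22 (SE 0.07, adjusted p = 0.010), a 1.16-fold decrease. Both calls were lost when P14 Sp replicate 2, the highest library for each gene, was left out (adjusted p = 0.067 for Epas1 and 0.058 for Arnt).

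The balance among subunits shifted accordingly. The log2 ratio of Epas1 over Hif1a counts within a library averaged -7.41 ± 0.25 in P14 TIL and -4.94 ± 0.18 in P14 Sp, a difference of -2.48, or a 5.56-fold lower ratio. An exact two-sided permutation test gave p = 0.1, the smallest p that 3 against 3 libraries can give. Hif1a was wholly higher and Epas1 wholly lower in P14 TIL, so this p was fixed by the single-gene values and adds no support. Compared per length (RPKM, CPM per kilobase of annotated exon), Hif1a made up 94.8 ± 0.53% of the summed level of the 3 subunits in P14 TIL and 79.0 ± 1.51% in P14 Sp. Arnt made up 4.61 ± 0.43% in P14 TIL and 18.2 ± 1.28% in P14 Sp, and Epas1 made up 0.593 ± 0.10% in P14 TIL and 2.73 ± 0.30% in P14 Sp. The RPKM ratio of Hif1a over Arnt was 20.7 ± 1.99 in P14 TIL and 4.35 ± 0.40 in P14 Sp. The larger ratio in P14 TIL came with a higher Hif1a level and a slightly lower Arnt level.

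The oxygen sensors did not move as a block. Egln3, the prolyl hydroxylase PHD3 (chromosome 12, 54178981 to 54203860, minus strand), was higher, at 20.3, 19.2 and 20.2 CPM in P14 TIL, against 7.17, 6.51 and 6.92 CPM in P14 Sp. Its libraries were tight in both tissues, and it was 2.96-fold higher (log2 fold change 1.56, SE 0.08, adjusted p = 2.3e-08), rank 866 from the top. Egln1, or PHD2, the main hydroxylase of HIF-1 in most cells (chromosome 8, 124908587 to 124949324, minus strand), stood at 143, 84.5 and 129 CPM in P14 TIL, against 76.1, 79.1 and 74.4 CPM in P14 Sp. It was the most variable of the 10 between P14 TIL libraries, with a coefficient of variation of 25.7%, and P14 TIL replicate 2 lay only just above P14 Sp. The log2 fold change of Egln1 was 0.67 (SE 0.15, adjusted p = 0.0020), and it ran between 0.51 and 0.86 when single libraries were left out.

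Egln2, or PHD1 (chromosome 7, 27158658 to 27166802, minus strand), was lower instead, at 47.4, 42.6 and 37.3 CPM in P14 TIL, against 68.6, 72.4 and 67.2 CPM in P14 Sp. This was the largest decrease among the 10 (log2 fold change -0.68, SE 0.09, adjusted p = 3.4e-05). Hif1an, or FIH (chromosome 19, 44562850 to 44576274, plus strand), stood at 49.2, 53.9 and 46.9 CPM in P14 TIL, against 64.5, 65.4 and 63.5 CPM in P14 Sp. All P14 TIL libraries lay below all P14 Sp libraries, with a log2 fold change of -0.34 (SE 0.07, adjusted p = 0.00087). Vhl, the substrate receptor of the ubiquitin ligase (chromosome 6, 113623959 to 113631633, plus strand), stood at 22.3, 23.8 and 22.5 CPM in P14 TIL, against 26.3, 27.2 and 26.6 CPM in P14 Sp. That decrease (log2 fold change -0.20, SE 0.07, adjusted p = 0.022) was the smallest of the 10, and its call was lost when any P14 Sp library was left out (adjusted p = 0.053, 0.080 and 0.059 without replicates 1, 2 and 3).

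Within the prolyl hydroxylase family the makeup differed more than the sum. The 3 enzymes together stood at 64.4, 45.9 and 56.8 RPKM in P14 TIL, against 48.4, 50.3 and 47.3 RPKM in P14 Sp, so the ranges overlapped. The shares of the enzymes did not overlap between the tissues. Egln2 was 27.6 ± 4.97% of the summed RPKM in P14 TIL and 50.9 ± 0.41% in P14 Sp, whereas Egln1 was 58.7 ± 6.57% in P14 TIL and 43.8 ± 0.03% in P14 Sp. Egln3 was 13.6 ± 1.94% in P14 TIL and 5.31 ± 0.39% in P14 Sp, and thus the smallest share in both tissues despite its increase. The log2 ratio of Egln3 over the sum of Egln1 and Egln2 counts averaged -3.0 ± 0.25 in P14 TIL and -4.41 ± 0.11 in P14 Sp, a 2.66-fold higher ratio (exact two-sided permutation p = 0.1, the smallest possible).

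**Figure D4:**
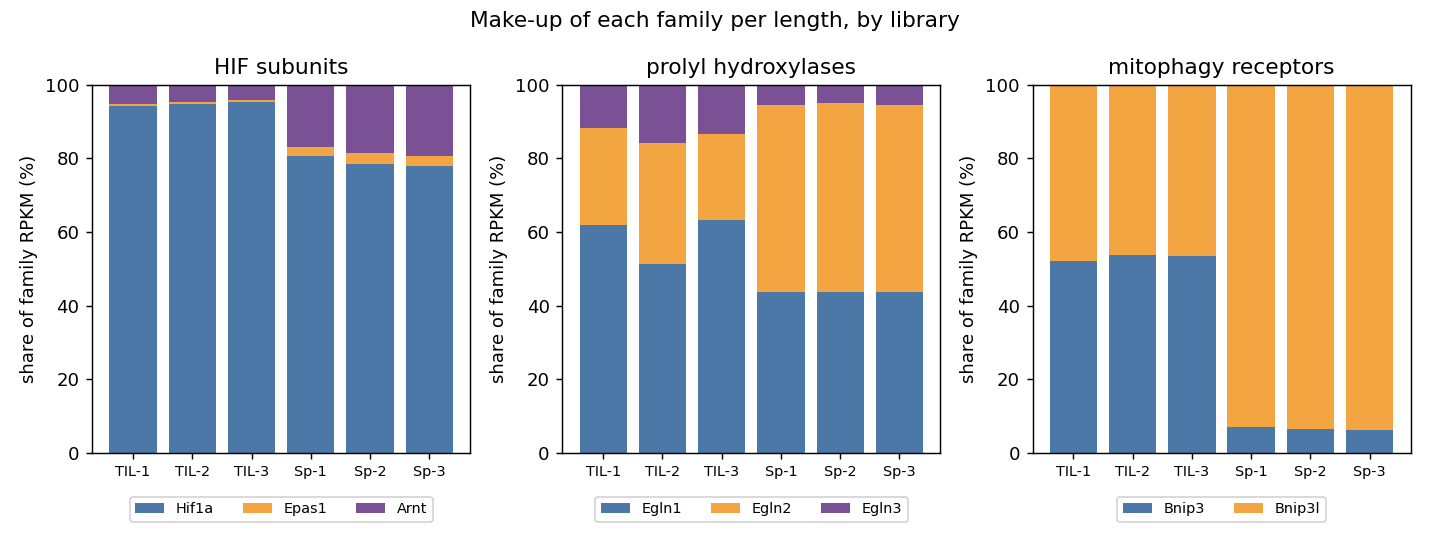
Share of each gene in the summed RPKM of its family in every library, for the HIF subunits, the prolyl hydroxylases and the mitophagy receptors, with the P14 TIL libraries left of the P14 Sp libraries. Hif1a fills 94.8% of the first family in P14 TIL and 79.0% in P14 Sp, and Bnip3 fills 53.2% of the last in P14 TIL and 6.61% in P14 Sp.

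The pair of outer-membrane mitophagy receptors moved in opposite directions. Bnip3, which tethers mitochondria to the autophagosome under hypoxia (chromosome 7, 138890836 to 138909519, minus strand), stood at 37.5, 42.1 and 50.8 CPM in P14 TIL, against 3.80, 3.43 and 3.16 CPM in P14 Sp. The read counts were 1367, 1611 and 1839 in P14 TIL, against 139, 129 and 111 in P14 Sp. This was the largest change of the 10, at rank 147 of all genes tested (log2 fold change 3.67, SE 0.12, adjusted p = 5.6e-10). Bnip3l, or NIX, its paralog, known for clearing mitochondria from maturing red cells (chromosome 14, 66985239 to 67008877, minus strand), stood at 58.5, 61.4 and 75.03 CPM in P14 TIL, against 85.1, 84.4 and 80.2 CPM in P14 Sp. P14 TIL replicate 3 came near the P14 Sp range without reaching it, and the log2 fold change was -0.33 (SE 0.08, adjusted p = 0.0034).

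Bnip3 counts stayed below Bnip3l counts in every library, but the gap was smaller in P14 TIL. The log2 count ratio of Bnip3 over Bnip3l averaged -0.58 ± 0.05 in P14 TIL and -4.59 ± 0.09 in P14 Sp, a 16.1-fold higher ratio (exact two-sided permutation p = 0.1, the smallest possible). That p was likewise fixed by the single-gene values, since Bnip3 was wholly higher and Bnip3l wholly lower in P14 TIL. Per length, Bnip3 was 53.2 ± 0.89% of the summed RPKM of the pair in P14 TIL and 6.61 ± 0.41% in P14 Sp. The sum itself was 36.0 ± 5.25 RPKM in P14 TIL and 23.1 ± 0.81 RPKM in P14 Sp, a 1.56-fold difference, so the increase of Bnip3 exceeded the decrease of Bnip3l.

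Copies in the genome limit how exactly these levels can be read. Of the 50-base windows of Bnip3 transcripts, the read length used, 16.5% also occur on the same strand in the annotated pseudogenes Gm16439, Gm6532, Gm9419 and Gm14506, and 33.9% occur on the opposite strand of AC160336.1, a noncoding gene that overlaps Gm16439. Together these 5 models held between 160% and 245% as many counts as Bnip3. The antisense model Gm45507 lies for 97.1% of its exonic bases within Bnip3 exons and held between 41.0% and 48.1% as many counts as Bnip3 in every library. All 6 were higher in P14 TIL, with log2 fold changes between 2.97 and 3.87. Neither the strand setting of the counting nor its handling of multi-mapped reads is stated. Reads from windows that Bnip3 shares with its copies or its antisense partner therefore cannot be told apart here. Adding the copies' counts gave Bnip3 a log2 fold change of 3.45, and adding the antisense counts gave 3.67. Bnip3l shares 20.8% of its windows with Bnip3l-ps, a processed pseudogene that held between 84.6% and 94.7% as many counts and had a log2 fold change of -0.25 (adjusted p = 0.0041). With that copy added, Bnip3l had a log2 fold change of -0.29 and the log2 ratio of the pair differed by 3.75. The 7 genes other than Hif1a, Bnip3 and Bnip3l shared 0 same-strand windows with any other gene.

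Ordered by RPKM, Hif1a led in both tissues, at 104 ± 8.52 in P14 TIL and 25.9 ± 1.36 in P14 Sp. In P14 TIL it was followed by Egln1 (33.1 ± 8.52 RPKM), then by Bnip3 (19.2 ± 2.98), Bnip3l (16.8 ± 2.29) and Egln2 (15.2 ± 1.80), whose ranges overlapped from one to the next. Vhl (7.62 ± 0.27), Hif1an (7.57 ± 0.55) and Egln3 (7.48 ± 0.23) could not be ordered beyond their spread, and Arnt (5.03 ± 0.08) and Epas1 (0.645 ± 0.06) came last. In P14 Sp, Egln2 (24.8 ± 0.96) overlapped Hif1a, and Bnip3l (21.6 ± 0.68) overlapped Egln1 (21.3 ± 0.66). Below them came Hif1an (9.76 ± 0.15), Vhl (8.91 ± 0.15), Arnt (5.98 ± 0.31), Egln3 (2.58 ± 0.13), Bnip3 (1.53 ± 0.14) and Epas1 (0.897 ± 0.11), each clear of the next.

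Of 19 other regulators of the HIF pathway tested, 9 were higher (47.4%, beside 34.8% of all genes), 8 lower (42.1%, beside 35.9%) and 2 did not pass, with a median log2 fold change of 0.07. The chaperone genes Hsp90aa1 (478 ± 52.6 CPM in P14 TIL and 155 ± 3.43 CPM in P14 Sp, log2 fold change 1.65) and Hsp90ab1 (log2 fold change 1.41), whose products stabilize Hif1a protein, were higher. Ep300, a co-activator of HIF (70.5 ± 5.03 CPM in P14 TIL and 122 ± 3.47 CPM in P14 Sp, log2 fold change -0.76), and Usp20, a deubiquitinase that acts on Hif1a (log2 fold change -1.34), were lower. Of 28 other oxygen and 2-oxoglutarate dependent dioxygenases, the wider enzyme class of the Egln genes, 8 were higher (28.6%, beside 34.8% of all genes), 14 lower (50.0%, beside 35.9%) and 6 did not pass, with a median of -0.16. The histone H3K27 demethylase Kdm6b was higher (31.8 ± 3.42 CPM in P14 TIL and 6.69 ± 0.38 CPM in P14 Sp, log2 fold change 2.28), as was Kdm2b (1.19). Its paralog Kdm6a (-0.67) and the H3K4 demethylase Kdm5a (-0.66) were lower.

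Most of the tested genes on the HIF target lists used here were higher. For glucose uptake and glycolysis, 18 of 19 were higher by edgeR (94.7%, beside 34.8% of all genes), with a median log2 fold change of 1.89. Of the 19, 13 passed the 2-fold null upward, beside 5.87% of all genes. The count of higher genes ran from 17 to 18 in the alternative analyses. The count of lower genes was 0 in the main edgeR fit and by DESeq2. It was 1 in 7 of 13 alternative analyses (limma-voom and 6 edgeR settings) and at an unadjusted p below 0.05. That gene was Pfkfb4, named after its value was seen (log2 fold change -0.46, adjusted p = 0.051). Tpi1, the triose phosphate isomerase, stood at 863 ± 10.3 CPM in P14 TIL and 85.8 ± 1.5 CPM in P14 Sp (log2 fold change 3.36). Slc16a3, the lactate exporter MCT4, stood at 229 ± 16 CPM in P14 TIL and 11.9 ± 0.29 CPM in P14 Sp (log2 fold change 4.30). Of 23 HIF targets outside glycolysis, 16 were higher (69.6%, beside 34.8% of all genes), 4 lower (17.4%, beside 35.9%) and 3 did not pass, with a median of 1.95. Of the 23, 13 passed the 2-fold null upward, beside 5.87% of all genes. The transferrin receptor Tfrc (212 ± 26.4 CPM in P14 TIL and 21.9 ± 0.18 CPM in P14 Sp, log2 fold change 3.30) and the transcription factor gene Bhlhe40 (419 ± 7.0 CPM in P14 TIL and 73.0 ± 1.35 CPM in P14 Sp, log2 fold change 2.55) had the smallest p-values among the increases. The 4 lower genes were the demethylase gene Kdm4b (-0.38), the nuclear receptor gene Rora (-0.37), the carbonic anhydrase gene Car9 (-0.77) and the peptide hormone gene Adm. Car9 averaged 0.593 ± 0.14 CPM in P14 TIL and 1.04 ± 0.34 CPM in P14 Sp, and its call was lost in 7 of 13 alternative analyses (adjusted p up to 0.19). Adm had 2 counts in all P14 TIL libraries and 47 in all P14 Sp libraries, a 23.8-fold lower share with a 95% exact binomial interval from 6.24 to 203, which covers counting error only. Both P14 TIL counts came from replicate 2 and the other P14 TIL libraries had 0, so the fitted log2 fold change of Adm was -4.31 with that library and -6.96 without it, where it depends on the prior count and is no bound. These lists were written with earlier results of these data known.

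A further list held mitophagy receptors, their partners and genes of their turnover. Of its 26 genes tested, 15 were lower (57.7%, beside 35.9% of all genes), 5 higher (19.2%, beside 34.8%) and 6 did not pass, with a median log2 fold change of -0.21. The 5 higher were Gabarapl1, an ATG8-family protein (61.4 ± 5.51 CPM in P14 TIL and 19.4 ± 1.35 CPM in P14 Sp, log2 fold change 1.69), the inner-membrane receptor gene Phb2 (291 ± 9.37 CPM in P14 TIL and 119 ± 1.40 CPM in P14 Sp, log2 fold change 1.32), Bcl2l1 (0.39), Usp30 (0.24) and Bcl2l13 (0.17). The calls of Usp30 and Bcl2l13 were lost in 9 and 5 of 13 alternative analyses (adjusted p up to 0.21 and 0.15). The autophagy receptor gene Nbr1 (50.4 ± 1.59 CPM in P14 TIL and 90.2 ± 1.09 CPM in P14 Sp, log2 fold change -0.81) and Mcl1, a survival factor of the Bcl2 family (287 ± 7.87 CPM in P14 TIL and 464 ± 5.44 CPM in P14 Sp, log2 fold change -0.67), were lower.

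**Figure D5:**
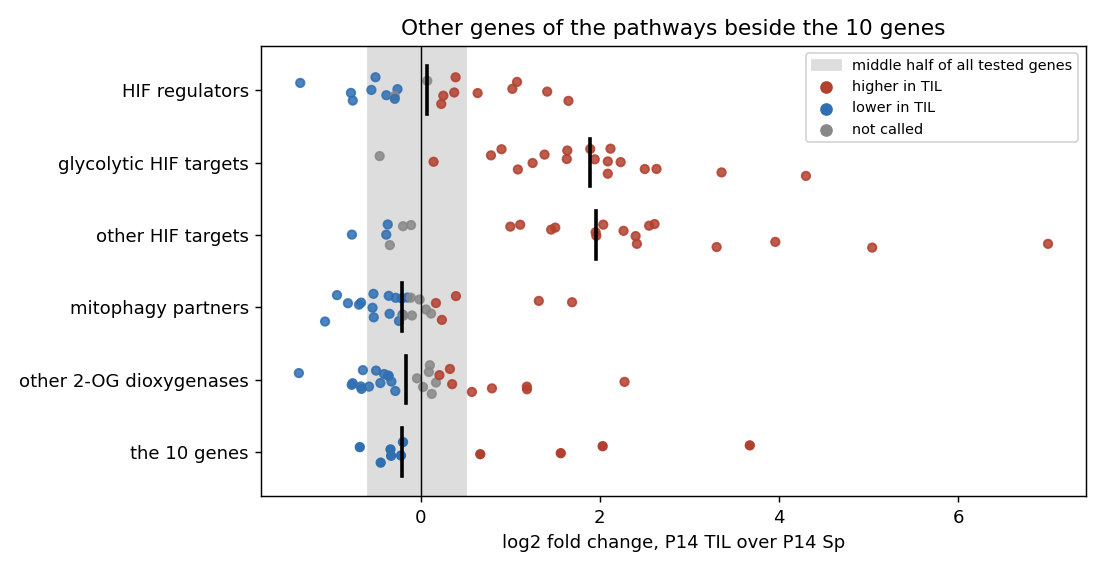
Log2 fold changes, P14 TIL over P14 Sp, of the tested genes of each pathway list and of the 10 genes (bottom row), coloured by the call, with the median of each list marked and the interquartile range of all tested genes in grey. The medians of both HIF target lists are 1.89 and 1.95, those of the other rows lie between -0.21 and 0.07, and Adm, with 3 or fewer counts in a tissue, is not drawn.

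The genes whose profiles lay nearest to 3 of the 10 were taken from 8543 candidates with a mean of at least 10 CPM, by the root mean square distance of centred log2(CPM + 1) values over the 6 libraries. Nearest to Bnip3 were Prelid2 (distance 0.080), Tfrc (0.093) and Nrn1 (0.12). Prelid2 stood at 19.2 ± 3.58 CPM in P14 TIL and 1.08 ± 0.04 CPM in P14 Sp. Nearest to Egln3 were Rrp1b (0.037), Timm50 (0.039) and Smox (0.043), and nearest to Hif1a were Cd320 (0.049), Litaf (0.057) and Tnf (0.057). Since the 6 libraries form 2 groups, this distance reflects mostly the size of the tissue difference, and it is given as a description.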

How the data were processed

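RNA was sequenced from 3 P14 TIL and 3 P14 Sp libraries as single reads of 50 bases. The authors deposited whole-number counts per gene with no normalization, and the tools named in the submitters' processing notes are featureCounts, STAR 2.3 and bcl2fastq 2.20.0.422, with mm10 as the genome. Strand setting, annotation release and treatment of multi-mapped reads were not stated. Libraries were grouped by their titles. Counts differed by more than sampling noise within every pair (chi-square per degree of freedom 2.11 to 30.4 within a tissue), so no library was a copy of another and each was counted once (n = 3 libraries per tissue). Preparations of 1 pool could differ by as much. The codes in the sample descriptions differ between the tissues, and a batch that they might mark cannot be told apart from tissue.

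Tissue differences came from the quasi-likelihood test of edgeR 4.0.16 (R 4.3.3) with TMM scaling. filterByExpr kept genes at a minimum count of 10 and minimum total of 15, and the threshold was 0.05 after Benjamini-Hochberg adjustment. Genes were also tested against a 2-fold null with glmTreat. Fold changes are P14 TIL over P14 Sp, and SE is the absolute log2 fold change over the square root of F. DESeq2 1.42.0, limma 3.58.1 (voom), other scalings, no filter, a replicate block and leaving out each library were alternatives, and adding antisense or copy counts was chosen after seeing the data. Symbols, exon lengths and mm10 positions came from GENCODE M21 (54587 of 55335 identifiers matched with version, 55154 had a symbol), and promoter sequences from RefSeq. Of 2 identifiers named Aldoa, the one with the larger total was used. The 10 genes and all lists were chosen with earlier results of these data known. Named genes are the 10, per pathway list and direction the 2 called genes of smallest p (all where 5 or fewer), and the 3 nearest profiles, with gene models of no proper symbol left out unless they share sequence with a gene described. From the marker lists only part of the genes under this rule are named, beside Cd8a and genes at 0 in a tissue. A count of 0 allows up to 3 counts, and all intervals cover counting error only.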

Additional observations from a re-analysis of the deposited data

How the results depend on the processing

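Of the 10 genes, 4 were higher in every alternative and 3 passed the 2-fold null in every alternative that used it (0 lower), with no change of direction for any of them. The count of lower genes ran from 3 to 6 when single libraries were left out. It was 3 without P14 Sp replicate 2, where Epas1, Arnt and Vhl missed the threshold, and Vhl also missed it with no filter on low counts (adjusted p = 0.087). Calls over all genes ran from 6349 to 7398 higher and from 6549 to 7972 lower, and the median log2 fold change of all genes from -0.15 (no filter) to -0.02. Glycolytic targets had 1 lower gene under RLE, upper-quartile and library-total scaling, with no filter, with limma-voom, and between 0 and 1 when single libraries were left out. Higher genes of the mitophagy list fell to 3 under upper-quartile and library-total scaling and ran from 3 to 6 when single libraries were left out (3 without P14 TIL replicate 2, P14 Sp replicate 1 or P14 Sp replicate 3). The lower genes of that list ran from 11 to 16 over all alternatives, with 11 without P14 TIL replicate 2 or P14 Sp replicate 1. The causes were not tested. The log2 ratio differences ran from -2.60 to -2.35 (Epas1 over Hif1a), from 3.75 to 4.06 (Bnip3 over Bnip3l) and from 1.28 to 1.53 (Egln3 over the sum of Egln1 and Egln2).

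Deviations of equal-numbered libraries correlated at -0.0008, 0.016 and 0.0024, so the numbers were not taken as pairs, and not every library correlated best with its own number. With the replicate number as a block, 6746 genes were higher and 7026 lower, the 10 genes kept 4 higher and 6 lower calls, glycolytic targets had 1 lower gene, and the ratio differences were -2.48, 4.01 and 1.41 (exact sign-flip p = 0.25, the smallest possible). For Epas1 over Hif1a and Bnip3 over Bnip3l that p was again fixed by the single-gene values. Car9 and Usp30 missed the threshold under the block (adjusted p = 0.0503 and 0.057).

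Depth limits Epas1, with at most 144 reads in a P14 TIL library, and Adm and Car9. With 3 libraries per tissue there is no exact p below 0.1 for a single ratio. Protein, hydroxylation and oxygen were not measured.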
